A study of Mus musculus with 11 samples.

Results

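The nuclear-encoded subunits of mitochondrial oxidative phosphorylation were followed in the choroid plexus (CP) of mice with experimental autoimmune encephalomyelitis (EAE). Members were all genes on the array whose symbols carry the names of the respiratory complexes (Nduf, Sdh, Uqcr, Cox and Atp5 families), and where a gene had several probes the one brightest on average over the pools was read. This gave 73 of 15946 named genes. By symbol alone, 30 were assigned to complex I, 4 to complex II, 8 to complex III, 15 to complex IV and 16 to complex V. Subunits encoded in the mitochondrial genome are outside the rule, and so are genes named otherwise, such as Cox4i1, Cyc1 and Cycs.

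Female SJL mice, 6 to 8 weeks old, were given a proteolipid protein peptide in complete Freund's adjuvant together with pertussis toxin, and the CP was taken at disease onset, in remission or at relapse. Control mice received phosphate-buffered saline (PBS) in the same adjuvant, with the same pertussis toxin, so that adjuvant and toxin are common to all groups. Each sample was the pooled CP of 3 perfused mice, hybridised to 1 Illumina MouseRef-8 array, and there were 3 onset, 3 remission, 2 relapse and 3 control pools. The control pools were collected along with the onset pools, so time after injection separates remission and relapse from control as well as disease phase does.

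Complex I oxidises NADH and complex II succinate, and both pass electrons to ubiquinone. Complex III carries them on to cytochrome c, complex IV reduces oxygen, and complex V uses the resulting proton gradient to make ATP. The CP epithelium secretes cerebrospinal fluid by active ion transport and is known for its many mitochondria.

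In every pool the subunits stood among the brightest probes of the array. The median member lay between the 97.5th and the 97.8th percentile of all analysed probes in each of the 11 pools. A probe was called above background when its detection p-value, measured against negative control beads, was below 0.01. On that measure 64 members (87.7%) were above background in all 11 pools, against 41.5% of all genes. Ndufb11 was above background in 7 pools, and Atp5md, Cox6a2, Cox7b2, Cox8c, Ndufs1, Sdha, Uqcrfs1 and Uqcrq in none. Among these, Ndufs1, Sdha and Uqcrfs1 encode catalytic subunits of complexes I, II and III, so the values below say nothing of their transcripts. At the other end, 10 members averaged above 16 on a log2 scale that ends at 16.15: Ndufa1, Ndufa4, Ndufa13, Cox6c, Cox8a, Atp5b, Atp5g1, Atp5g3, Atp5h and Atp5j2. Signals this close to the top of the scale leave little room for a higher value, and differences of these members are compressed.

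The promoters of members that the results below turn on were read from RefSeq (mouse build GRCm38.p6), as the 250 bases before and the 50 bases after the annotated start. The table held 61 of the 73 members. Cox5a (chr9:57520982-57521281, + strand) is shown as the member with the most separated EAE and control pools. Atp5k (chr5:108434350-108434649, − strand) and Ndufb4 (chr16:37654319-37654618, − strand) are shown as members that varied together between pools, and Cox8a (chr19:7217567-7217866, − strand) and Cox8b (chr7:140900397-140900696, − strand) as a pair of isoforms of 1 subunit. Capitals mark matches, on either strand, to GCGCANGCG (the motif of NRF1, nuclear respiratory factor 1), CGGAAG (the core motif of ETS factors such as GABP) and GGGCGG (the GC box bound by Sp1).
Cox5a: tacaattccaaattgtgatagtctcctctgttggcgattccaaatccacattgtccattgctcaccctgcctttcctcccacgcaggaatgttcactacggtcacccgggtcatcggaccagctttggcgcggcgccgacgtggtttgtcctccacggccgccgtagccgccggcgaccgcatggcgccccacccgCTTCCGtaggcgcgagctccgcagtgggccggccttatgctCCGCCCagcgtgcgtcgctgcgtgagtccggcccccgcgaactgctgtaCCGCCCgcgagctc
Atp5k: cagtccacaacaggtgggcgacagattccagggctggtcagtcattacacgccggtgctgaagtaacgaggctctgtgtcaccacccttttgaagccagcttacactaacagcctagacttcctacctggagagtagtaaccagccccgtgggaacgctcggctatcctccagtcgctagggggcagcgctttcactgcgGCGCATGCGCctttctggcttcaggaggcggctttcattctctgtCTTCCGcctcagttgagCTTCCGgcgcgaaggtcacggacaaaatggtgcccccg
Ndufb4: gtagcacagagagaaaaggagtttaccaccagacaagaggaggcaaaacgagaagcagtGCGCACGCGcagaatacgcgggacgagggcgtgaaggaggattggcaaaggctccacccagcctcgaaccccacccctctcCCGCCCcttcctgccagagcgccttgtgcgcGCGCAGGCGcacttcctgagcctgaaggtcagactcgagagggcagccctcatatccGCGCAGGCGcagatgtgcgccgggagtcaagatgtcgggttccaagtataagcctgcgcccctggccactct
Cox8a: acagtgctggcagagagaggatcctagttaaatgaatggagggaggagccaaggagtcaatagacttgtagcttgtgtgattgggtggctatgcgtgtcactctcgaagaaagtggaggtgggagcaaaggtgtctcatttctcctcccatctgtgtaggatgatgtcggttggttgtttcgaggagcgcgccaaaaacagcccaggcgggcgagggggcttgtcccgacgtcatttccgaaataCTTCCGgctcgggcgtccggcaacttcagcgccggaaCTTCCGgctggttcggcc
Cox8b: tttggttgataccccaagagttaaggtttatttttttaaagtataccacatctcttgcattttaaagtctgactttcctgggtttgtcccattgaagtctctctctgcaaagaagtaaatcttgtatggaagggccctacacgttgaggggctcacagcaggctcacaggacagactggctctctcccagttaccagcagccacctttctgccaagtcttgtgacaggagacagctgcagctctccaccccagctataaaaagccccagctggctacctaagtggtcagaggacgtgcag

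GCGCANGCG was found in the promoters of 16 of the 61 members (26.2%), against 7.03% of 27025 genes in the same table. The holders came from every complex: Ndufa5, Ndufa6, Ndufa8, Ndufb4 and Ndufb10 of complex I, Sdha and Sdhd of complex II, Uqcrc1 and Uqcr11 of complex III, Cox6a1 of complex IV, and Atp5c1, Atp5g2, Atp5g3, Atp5h, Atp5k and Atp5o of complex V. Ndufb4 held it at 3 positions and Atp5k at 1, on both strands of 1 overlapping stretch. CGGAAG was found in 26 members (42.6%, against 18.8% of all genes) and the YY1 motif AANATGGCG in 9 (14.8%, against 2.76%). AAGGTCA, bound by estrogen-related receptors, was found in 6 (9.84%, against 5.38%). GGGCGG was held by 25 members (41.0%, against 38.2% of all genes), the CCAAT box by 28 (45.9%, against 41.1%) and the TATA box, searched as TATAAA, by 7 (11.5%, against 15.7%). Both strands were searched for each motif. Motifs may overlap one another, as CGGAAG can within longer GC-rich stretches, and a match is a match of letters only. The window of Cox8a held CGGAAG at 2 positions. That of Cox8b held none of the capitalised motifs, and its TATAAA lay at bases 255 to 260, after the annotated start.

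At onset, no member passed the test against control. The test was limma's moderated test on quantile-normalized log2 signals, two-sided, with Benjamini-Hochberg adjustment over all 23978 probes at 5%. Among all 15946 genes, 219 were called higher at onset (1.37%) and 33 lower (0.207%), and among the 73 members 0 were called in either direction. At an unadjusted p under 0.05 the members again gave 0 higher and 0 lower, against 6.26% of all genes higher and 4.63% lower. The median log2 fold change of the members was -0.043, beside -0.016 over all genes, and 50 of the 73 lay below zero (68.5%, against 55.6% of all genes). Among genes above background in all pools, the median was -0.052 over the members and -0.027 over all such genes, with 68.75% and 59.1% below zero. Leaving out members near the top of the scale or not above background in all pools, 54 remained, and the 95% confidence interval lay within 0.5 log2 units of zero, on both sides, for 43 of them.

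In remission, 0 members were called, while 0.276% of all genes were called higher and 0% lower. At an unadjusted p under 0.05, 0 members were higher (4.48% of all genes) and 4 were lower (2.95% of all genes): Uqcr11, Ndufs1, Cox5a and Ndufa2. Ndufs1 among them was above background in no pool. The median log2 fold change was -0.044 over the members and -0.009 over all genes, with 47 members below zero (64.4%, against 53.5% of all genes). At relapse, 0 members were called, and 0.00627% of all genes, a single gene, was called higher and 0% lower. At an unadjusted p under 0.05, 0 members were higher (3.78% of all genes) and 4 were lower (2.13% of all genes): Cox5a, Ndufa6, Uqcrb and Ndufa2. The median log2 fold change at relapse was -0.078, the lowest of the 3 phases, beside -0.003 over all genes. At relapse 58 members lay below zero (79.5%, against 51.0% of all genes). Among genes above background in all pools, 65.6% of the members and 55.7% of all such genes lay below zero in remission, and 81.25% and 50.7% at relapse. Of the same 54 members, the interval lay within 0.5 log2 units of zero for 43 in remission and 36 at relapse. The 3 phases share their control pools, so these medians do not stand apart from each other. Leaving out single pools changed them in both directions. The onset median was -0.067 without onset 1 and -0.026 without control 2. The relapse median was -0.127 without relapse 1 and -0.054 without relapse 2. With equal array medians in place of equal distributions, the medians were -0.075 at onset, -0.116 in remission and -0.148 at relapse.

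**Figure D1:**
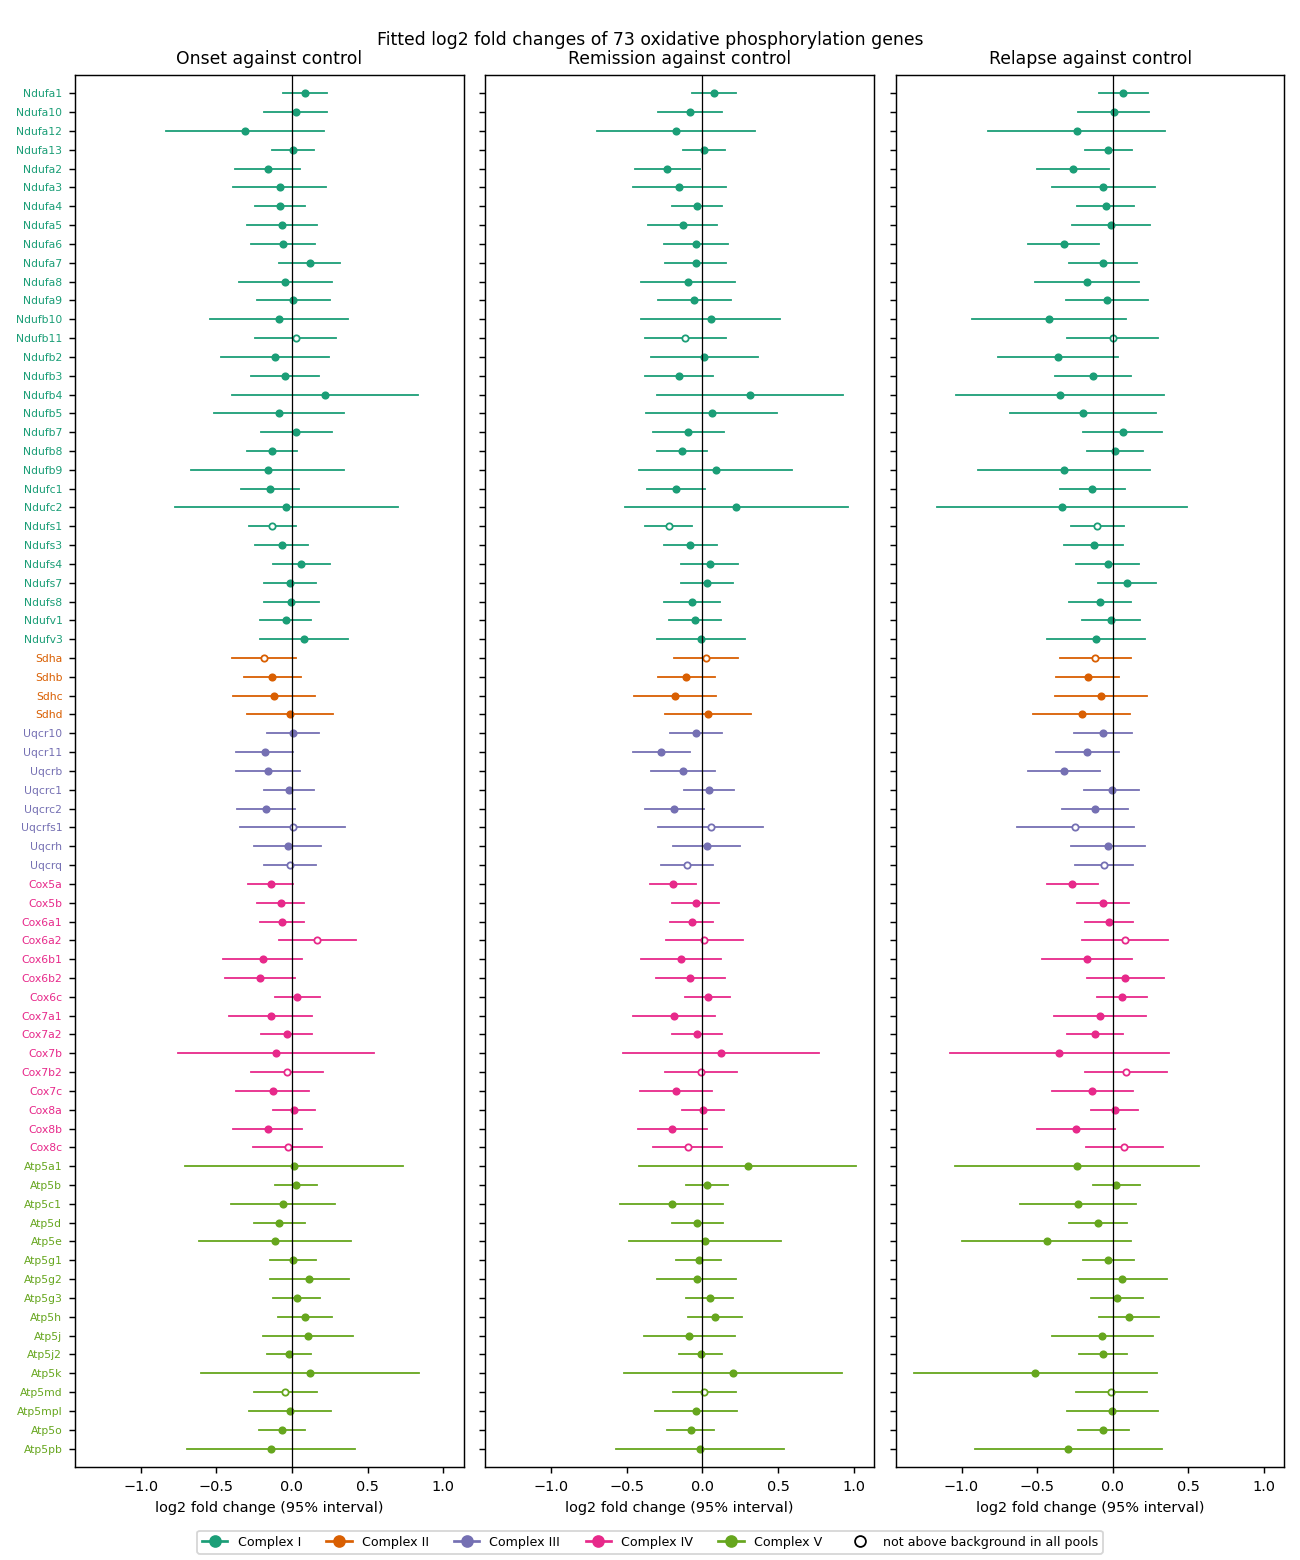
Fitted log2 fold changes of the 73 members (rows, coloured by complex) against control at onset, in remission and at relapse, with 95% confidence intervals; open points are members not above background in all 11 pools. Most points lie within 0.5 of zero, medians are -0.043, -0.044 and -0.078, and the long intervals belong to Ndufc2, Atp5k, Atp5a1 and other members that vary between pools of the same group.

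The phases were also set against each other. Remission against onset gave 0 called members (0% of all genes) and 0 at an unadjusted p under 0.05 (4.19% of all genes). Relapse against onset gave 0 called members (0.345% of all genes). At an unadjusted p under 0.05 (10.4% of all genes) Cox6b2 was the only higher and Ndufa6 the only lower member there. Relapse against remission gave 0 called members (0.0439% of all genes) and, at an unadjusted p under 0.05 (5.81% of all genes), Ndufa6 alone, again lower. The median log2 fold changes of the members in these 3 comparisons were -0.005, -0.033 and -0.021.

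Taken by complex, the medians against control were all at or below zero and none exceeded 0.15 log2 units in size. Complex I, the NADH dehydrogenase, had medians of -0.045 at onset, -0.051 in remission and -0.094 at relapse. Complex II, with 4 members of which Sdha was not above background, had -0.124, -0.042 and -0.140. Complex III had -0.023, -0.072 and -0.090, and at relapse all 8 of its members lay below zero, Uqcrfs1 and Uqcrq among them not above background. Complex IV, cytochrome c oxidase, had -0.074, -0.070 and -0.064. Complex V, the ATP synthase, stood closest to zero at onset and in remission, with -0.005 and -0.014, and had -0.063 at relapse. Of its 16 members, 5 averaged above 16 on the log2 scale, near its top, where differences are compressed. The plot of members by pool shows the pools behind these medians. With each member centred on its own mean, the pool medians over the 73 members were -0.002, 0.0001 and -0.011 in the onset pools, 0.016, -0.012 and -0.015 in the remission pools, -0.017 and -0.050 in the relapse pools, and 0.055, 0.031 and 0.015 in the control pools. Relapse 2 was the lowest pool and control 1 the highest, and remission 1 overlapped the control pools.

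**Figure D2:**
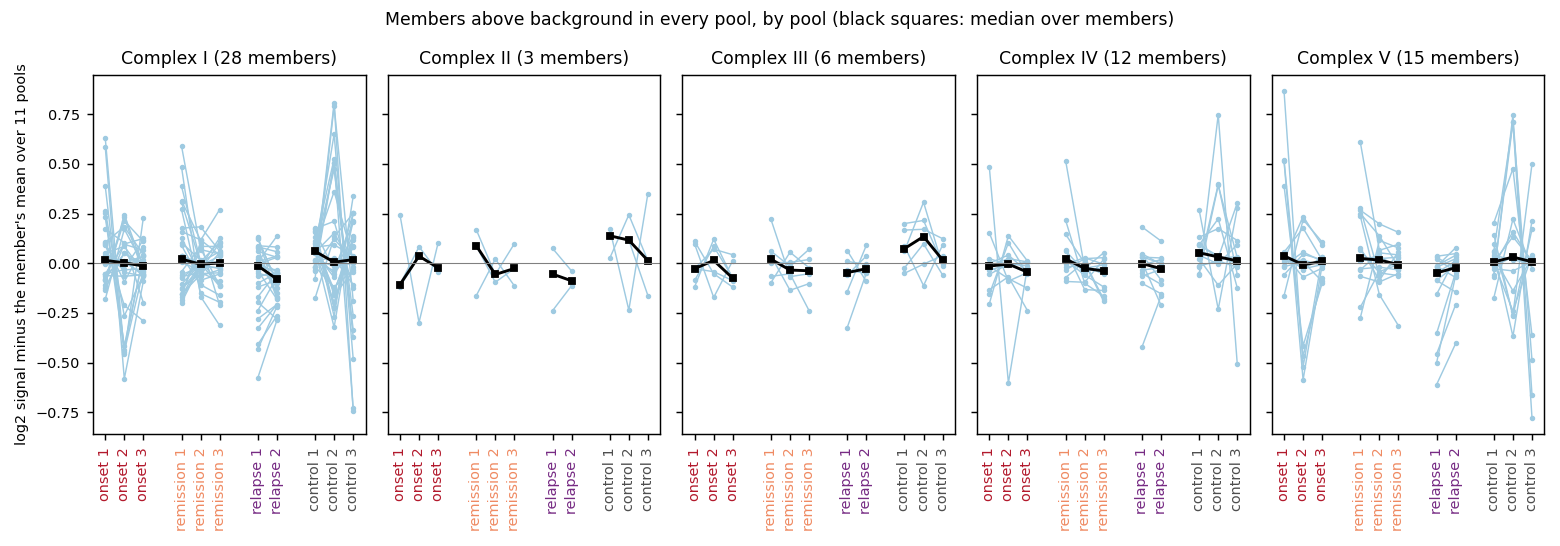
Log2 signal of each member above background in all pools, minus its mean over the 11 pools (vertical axis), for each pool (horizontal axis), in 5 panels for complexes I to V; thin lines join the pools of a group for 1 member and black squares are medians over members. The medians over the members of complexes I, IV and V stay near zero in every pool, while single members of complexes I, IV and V spread over more than 1 log2 unit, most of all in control 2 and control 3.

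Single members are described by complex. In complex I, Ndufa6, an accessory subunit at the matrix arm, had the lowest p at relapse. Its log2 signal was 13.38 and 13.29 in the relapse pools, 13.67, 13.48 and 13.65 in the onset pools, 13.53, 13.66 and 13.66 in the remission pools, and 13.75, 13.78 and 13.45 in the control pools. Both relapse pools lay below the 9 others, though the distance to control 3 was small. The log2 fold change at relapse was -0.33 ± 0.11 (SE; n = 2 relapse and 3 control pools; limma adjusted p = 0.786), and the exact permutation p was 0.2.

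Ndufa2, another accessory subunit of complex I, measured 15.17, 15.03 and 15.01 in onset pools, 15.11, 14.97 and 14.92 in remission pools, 14.91 and 15.03 in relapse pools, and 15.16, 15.44 and 15.10 in control pools. The control mean rested on control 2, and remission and control overlapped; the log2 fold changes were -0.16, -0.23 and -0.26 in the order of the phases, with limma adjusted p of 0.691, 0.658 and 0.859. Ndufb8 was lower in every onset pool (15.04, 15.04 and 15.05) than in every control pool (15.19, 15.20 and 15.14), but its relapse pools, both at 15.19, lay within the control range, and the onset change of -0.13 ± 0.08 (SE) had a limma adjusted p of 0.649. Ndufa1 was the only member whose 8 EAE pools all lay above the 3 control pools, at 16.08 to 16.14 against 15.97 to 16.08, a spread at the top of the scale. Among all genes, 1.61% had all EAE pools above all control pools. Ndufa13 had the narrowest range of complex I, 0.07 log2 units over the 11 pools, likewise at the top of the scale, and Ndufv1, which carries the NADH-binding site, ranged over 0.22 units at a mean well below it.

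In complex II, which also serves the citric acid cycle, the iron-sulfur subunit Sdhb had the smallest range (0.36 log2 units). It measured 13.50, 13.66 and 13.60 in onset pools, 13.71, 13.53 and 13.59 in remission pools, 13.57 and 13.53 in relapse pools, and 13.65, 13.86 and 13.63 in control pools. Its log2 fold changes of -0.13, -0.11 and -0.17 had limma adjusted p of 0.720, 0.897 and 0.931. The membrane anchor Sdhc had the widest range of the complex, 0.59, and was highest in control 3 (14.87) and lowest in control 2 (14.29). Sdhd, the other anchor, changed by -0.21 ± 0.15 (SE) at relapse (limma adjusted p = 0.939).

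In complex III, Uqcr11, its smallest accessory subunit, was lower in every EAE pool than in any control pool. It measured 14.60, 14.84 and 14.64 at onset, 14.65, 14.66 and 14.48 in remission, 14.78 and 14.62 at relapse, and 14.88, 14.89 and 14.84 in controls. Onset 2 came within 0.01 of control 3, so the separation is slight. The log2 fold changes were -0.18 ± 0.09, -0.27 ± 0.09 and -0.17 ± 0.10 (SE), with limma adjusted p of 0.552, 0.405 and 0.931. Uqcrb, the ubiquinone-binding protein, measured 13.50 and 13.78 at relapse against 14.03, 14.04 and 13.82 in controls, a change of -0.32 ± 0.11 (SE; limma adjusted p = 0.801), with onset pools between 13.65 and 13.92 and remission pools between 13.83 and 13.84. The core protein Uqcrc1 had the narrowest range of the complex (0.17), and the other core protein Uqcrc2 changed by -0.17 at onset and -0.18 in remission (limma adjusted p of 0.601 and 0.732).

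In complex IV, Cox5a, a nuclear-encoded subunit of the oxidase, separated EAE from control most clearly of the members. It measured 14.64, 14.68 and 14.60 in onset pools, 14.66, 14.58 and 14.52 in remission pools, 14.54 and 14.49 in relapse pools, and 14.77, 14.82 and 14.76 in control pools. All 8 EAE pools lay below all 3 control pools. The means were 14.64 ± 0.04, 14.59 ± 0.07, 14.51 ± 0.04 and 14.78 ± 0.03 (SD; n = 3, 3, 2 and 3), and the log2 fold changes were -0.14 ± 0.07, -0.19 ± 0.07 and -0.27 ± 0.08 (SE). The limma adjusted p were 0.560, 0.503 and 0.677, and the exact permutation p of each comparison was 0.1, the smallest that 3 pools against 3 or 2 against 3 can give. In all, 3 members had all EAE pools below all control pools (Cox5a, Uqcr11 and Ndufs1, the last not above background), and 1.12% of all genes did. When only the median of each array was made equal, instead of its whole distribution, the separation was lost for both Cox5a and Uqcr11.

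Counted phase by phase, 6 members had non-overlapping lower pools at onset (8.36% of all genes) and 1 higher (8.13%), 6 lower (5.99%) and 1 higher (6.14%) in remission, and 11 lower (9.38%) and 2 higher (11.3%) at relapse. The lower members at relapse were Cox5a, Cox7a2, Cox8b, Ndufa2, Ndufa6, Ndufa13, Ndufs1, Sdhb, Uqcr11, Uqcrb and Atp5j2, of which Ndufs1 was above background in no pool.

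**Figure D3:**
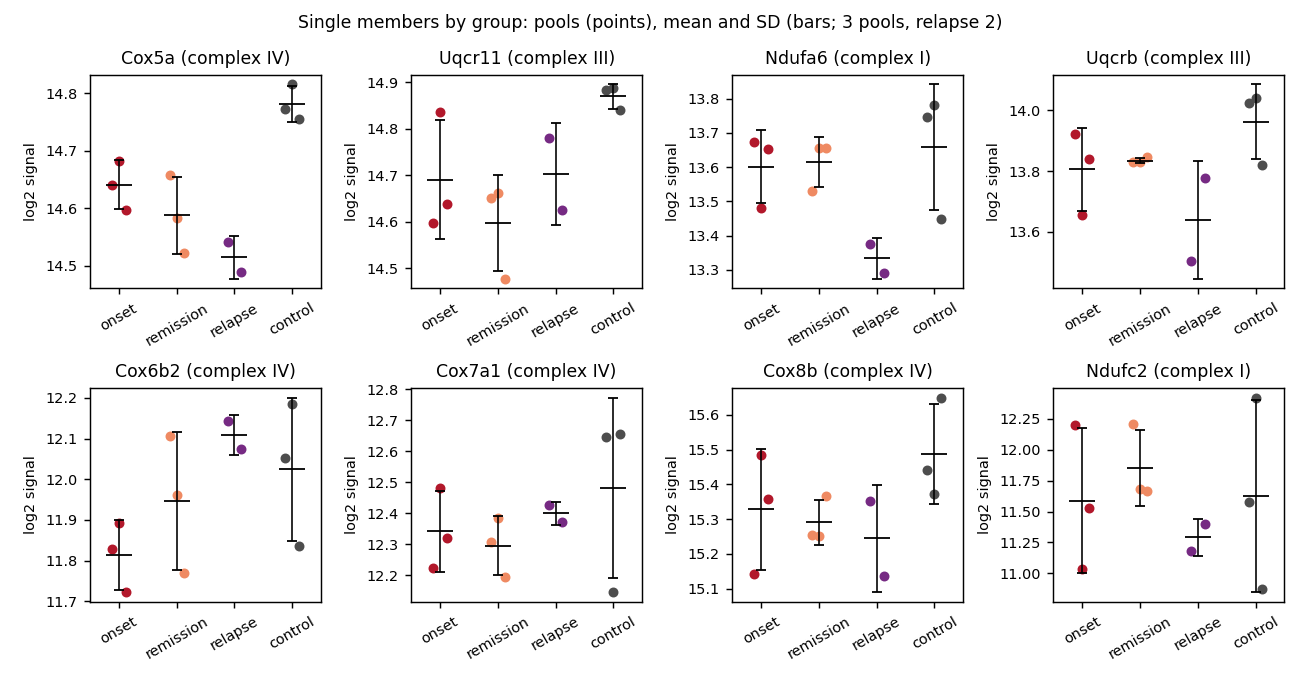
Log2 signal of 8 members by group (points are pools; the horizontal mark and bars give mean and SD over 3 pools, 2 at relapse), each panel on its own axis. Cox5a and Uqcr11 lie below the control pools in all EAE pools, Ndufa6 is lowest at relapse, and Ndufc2 spreads over 1.55 log2 units, mostly within groups.

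Complex IV also holds isoforms known for restricted expression. Cox8b and Cox7a1, isoforms of heart and skeletal muscle, were above background in all 11 pools, with log2 signals of 15.14 to 15.65 for Cox8b and 12.15 to 12.66 for Cox7a1. Cox6a2, the muscle partner of Cox6a1, was above background in none. Of 8 muscle genes listed as markers, Acta1, Ckm, Myl1, Tnnc2, Tnni2 and Tnnt2 were above background in no pool, Mylpf was in 3 pools, and Myh7, a slow and cardiac myosin heavy chain, was in all 11. The summed signal of the muscle list was 7391 to 8226 in onset pools, 7504 to 8570 in remission pools, 8361 to 8856 in relapse pools and 8037 to 8719 in control pools, and its part in the signal of these isoforms was not tested. Cox8b measured 15.14, 15.48 and 15.36 at onset, 15.25, 15.25 and 15.37 in remission, 15.35 and 15.14 at relapse, and 15.44, 15.37 and 15.65 in controls, with changes of -0.16, -0.20 and -0.24 (limma adjusted p of 0.713, 0.774 and 0.882). Cox7a1 was lowest in control 2 (12.15) and highest in control 3 (12.66), so that the control pools alone spanned its whole range. Its partner Cox7a2 changed by no more than 0.12 log2 units in any phase.

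Cox6b2, known as a testis isoform, was above background in all 11 pools, whereas the testis isoforms Cox7b2 and Cox8c were not above background in any. Cox6b2 measured 11.83, 11.89 and 11.72 at onset, 12.11, 11.96 and 11.77 in remission, 12.14 and 12.07 at relapse, and 12.05, 12.18 and 11.84 in controls. The relapse pools lay above the onset pools, by 0.29 ± 0.12 log2 units (SE; limma adjusted p = 0.438), and the onset change against control was -0.21 ± 0.11 (limma adjusted p = 0.573). When the arrays were weighted by their quality, Cox6b2 at onset was the 1 member called, at -0.27 and a limma adjusted p of 0.0461, under weights that also called 1272 of all genes. Cox6a1 had 2 probes above background in all pools, which changed by -0.07 and -0.11 at onset. The range of Cox8a, 0.05, was the narrowest of all members, at the top of the scale.

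In complex V, no member reached an unadjusted p under 0.05 against control. Atp5o, the stalk subunit also called OSCP, was lower in remission (15.83, 15.84 and 15.83) than in control pools (15.87, 15.99 and 15.87), by -0.08 ± 0.07 (SE; limma adjusted p = 0.909). Atp5d, of the central stalk, changed by -0.08 at onset (limma adjusted p = 0.841). The catalytic subunit Atp5b, near the top of the scale, had the narrowest range of the complex (0.07). The 3 genes that encode the identical c subunit of the rotor ring were all above background in all pools; Atp5g1 and Atp5g3 were near the top of the scale, and Atp5g2 ranged from 12.25 in control 2 to 12.84 in control 3. The widest changes of the complex, -0.44 ± 0.26 for Atp5e and -0.51 ± 0.37 for Atp5k at relapse (SE; limma adjusted p of 0.935 and 0.942), came with standard errors several times those of most members.

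These large errors belonged to a group of members that differed widely between pools of the same group, above all among the onset and the control pools. In all, 11 members ranged over at least 0.8 log2 units, and 9 of them followed 1 order: control 2 above control 1 above control 3, onset 1 above onset 3 above onset 2, remission 1 highest of its group, and relapse 2 above relapse 1. They were Ndufc2, Ndufb4, Ndufb5 and Ndufb9 of complex I, Cox7b of complex IV, and Atp5k, Atp5a1, Atp5pb and Atp5e of complex V. The order and the limit of 0.8 were set after these values were seen, and the counts are descriptions.

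Ndufc2, a membrane-arm subunit, measured 12.20, 11.03 and 11.53 in onset pools, 12.21, 11.68 and 11.66 in remission pools, 11.18 and 11.40 in relapse pools, and 11.58, 12.42 and 10.87 in control pools. The control pools thus held both the highest and the lowest value. Its log2 fold changes of -0.04, 0.23 and -0.33 each had a standard error of 0.34 or more. Atp5k, a small subunit of the synthase membrane part, measured 12.90, 11.51 and 12.06 at onset, 12.30, 12.23 and 12.19 in remission, 11.42 and 11.63 at relapse, and 11.96, 12.78 and 11.37 in controls. Cox7b measured 12.82, 11.74 and 12.32 at onset, 12.86, 12.31 and 12.39 in remission, 11.92 and 12.17 at relapse, and 12.28, 13.09 and 11.83 in controls. In both, the control pools differed by over 1 log2 unit, more than any phase differed from control.

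The median of the 9 members, each centred on its mean, was 0.51, -0.47 and -0.02 in the onset pools, 0.31, 0.07 and 0.05 in the remission pools, -0.43 and -0.21 in the relapse pools, and -0.04, 0.71 and -0.51 in the control pools. Remission and relapse pools were closer together than onset or control pools, and both relapse pools lay below the 3 remission pools. Fitted over the groups, the 9 members had a median log2 fold change of -0.33 at relapse against control and of -0.47 at relapse against remission (all 9 below zero, from -0.71 to -0.26), with median standard errors of 0.32, and 0 were called. Another 7 members ran in exactly the opposite order, with smaller ranges: Ndufa3, Ndufb3, Ndufc1, Ndufv3, Sdhc, Uqcr10 and Atp5c1. Their medians were 0.10, -0.24 and 0.25 in the control pools. The other 48 members above background in all pools had medians between -0.03 and 0.05 in every pool.

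**Figure D4:**
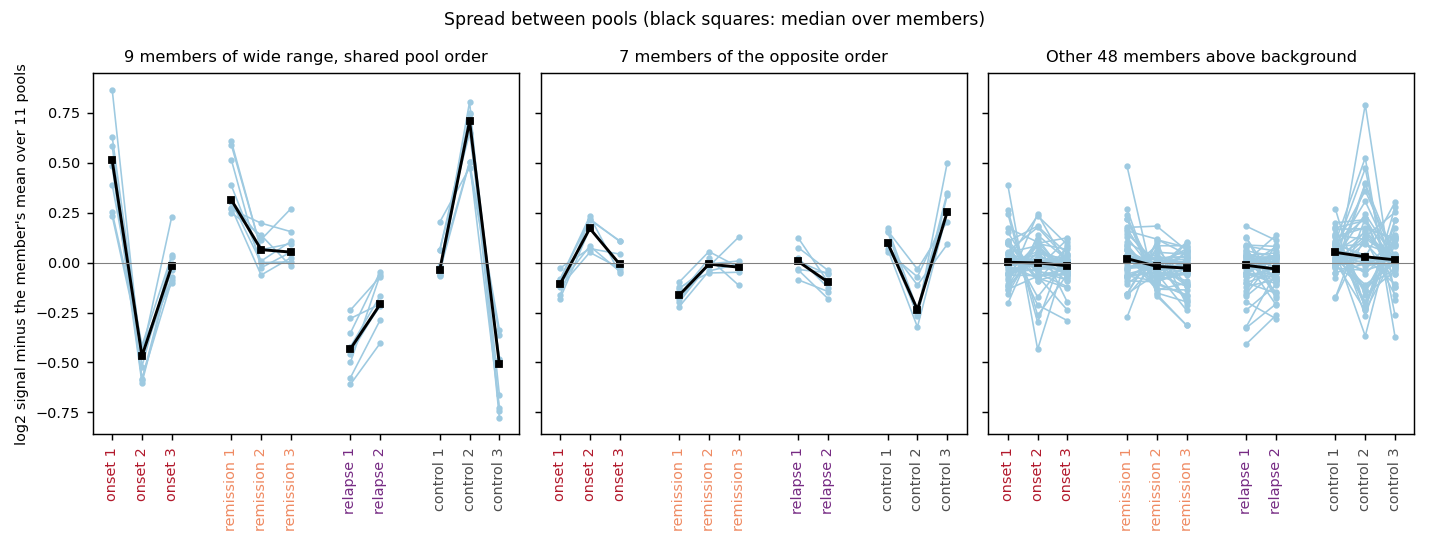
Log2 signal minus the member's mean over 11 pools (vertical axis), for each pool (horizontal axis), for the 9 members of wide range with a shared pool order, the 7 members of the opposite order and the other 48 members above background; black squares are medians. The median of the 9 members spans -0.51 in control 3 to 0.71 in control 2, while that of the 48 others stays between -0.03 and 0.05.

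The shared order was found in 11 of the 73 members (15.1%), against 4.96% of all genes and 8.31% of the genes above background in all pools, and the opposite order in 7 (9.59%, against 4.17% and 7.94%). The order was read from these members' own values, so a high share among them follows from that choice and cannot show enrichment. Other lists held both orders too. Of 66 cytosolic ribosome genes 9 ran in the shared and 2 in the opposite order, and of 77 mitochondrial ribosome genes 3 and 15. Of 17 citric acid cycle genes 3 ran in each. Standard errors of the 9 members against control at onset ran from 0.20 to 0.34 (median 0.28), beside 0.06 to 0.24 (median 0.09) for the 48 others. The 9 were chosen for their wide range, so larger errors follow from that choice. Members of 1 enzyme fell on different sides: in complex V, Atp5a1 (the alpha subunit) ran from 15.52 in control 2 to 14.03 in control 3, while Atp5c1 (gamma) ran from 13.74 to 14.50 in the same pools and Atp5b (beta), at the top of the scale, from 16.08 to 16.13. Ndufa5 carried the split within 1 gene. Its brighter probe measured 14.13, 13.73 and 14.17 in control pools, and its second probe, also above background in all pools, 12.87, 13.21 and 12.14. The second probe followed the order of the 9 members over a range of 1.07, and the brighter one did not, over 0.44. Control 2 had the highest median raw signal of the 11 arrays (377.5) and the fewest probes above background (8687), and control 3 the lowest median raw signal (256.65), while onset 1 (346.1) and onset 2 (318) lay between. The part of these array properties in the pool order was not tested. Which of the pools shared a beadchip is not in the sources used here, so beadchip and pool cannot be told apart. Of the 7 members of the group of 9 with a promoter in the table, 2 held GCGCANGCG (Atp5k and Ndufb4) and 3 held AAGGTCA. Among these 7, CGGAAG and the CCAAT box were each held by 4, GGGCGG by 3, and AANATGGCG and TATAAA by 0. Of 6 members of the opposite order with a promoter, 1 held GCGCANGCG, 0 AAGGTCA, 1 CGGAAG, 4 the CCAAT box, 2 GGGCGG, 1 AANATGGCG and 1 TATAAA.

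Pools also differed in how alike they were. Over the members, the median absolute difference was smallest between onset 3 and remission 3 (0.05 log2 units, with 0 members more than 0.5 apart) and largest between onset 2 and control 2 (0.28, with 15 members more than 0.5 apart). Control 2 and control 3 were 0.27 apart, with 18 members more than 0.5 apart.

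Genes that serve the same organelle were counted beside the subunits. The mitochondrial ribosome, which translates the mitochondrially encoded subunits, had 77 genes measured, 0 called in any phase against control, and medians of -0.047, -0.084 and -0.088 with 62, 67 and 61 genes below zero. The lowest p among them was that of Mrps2 at onset (-0.30 ± 0.09; limma adjusted p = 0.162). Assembly factors of the complexes gave 0 called of 35, with medians of -0.060, -0.080 and -0.039; among them Ndufaf1, a complex I assembly factor, changed by -0.24 ± 0.07 at onset (limma adjusted p = 0.162). The 17 citric acid cycle genes (medians -0.061, -0.056 and -0.055), 9 mitochondrial carriers and 7 mitochondrial antioxidants also gave 0 calls, and so did 9 respiratory genes outside the naming rule, among them Cycs, cytochrome c, at -0.19, -0.18 and -0.17 (limma adjusted p of 0.437, 0.672 and 0.923). Glycolysis had 0 called of 16, with medians of 0.035, 0.023 and 0.024, and the lowest p there was that of Hk2, a hexokinase, at onset (0.53 ± 0.13; limma adjusted p = 0.0736). The cytosolic ribosome, with 66 genes measured, gave 0 calls and medians of 0.042, 0.0005 and -0.058.

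**Figure D5:**
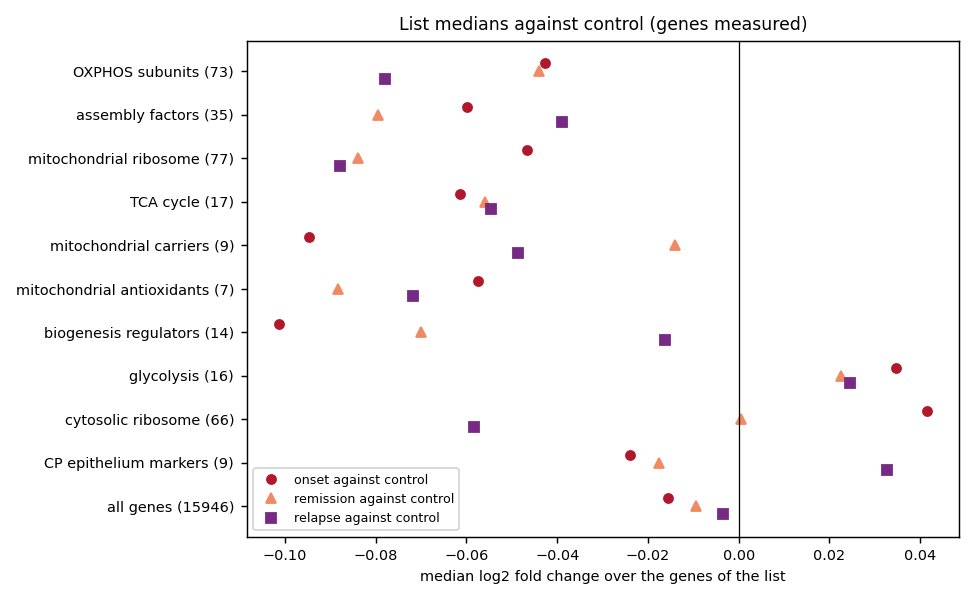
Median log2 fold change against control (horizontal axis) over the measured genes of each list (rows, with the number of genes), for onset, remission and relapse. The oxidative phosphorylation subunits lie at -0.043, -0.044 and -0.078 with the mitochondrial ribosome at -0.047, -0.084 and -0.088, and glycolysis lies above zero in all 3 phases; the phases share their control pools.

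Of 14 regulators of mitochondrial biogenesis, 1 was called, lower at onset, where 0.207% of all genes were called lower. Gabpb2, Tfb2m, Yy1, Ppara and Ppard of the 14 were above background in no pool. Ppargc1b, the coactivator PGC-1beta, was lower at onset: 10.44, 10.57 and 10.66 in onset pools against 10.94, 10.96 and 11.03 in control pools, a log2 fold change of -0.42 ± 0.09 (SE; limma adjusted p = 0.0456). Remission pools measured 10.90, 10.65 and 10.63 and relapse pools 10.87 and 10.87, all below the control pools, with changes of -0.25 and -0.11 that did not pass (limma adjusted p of 0.502 and 0.965). The onset call was close to the threshold. It was lost without any 1 of the onset or control pools (adjusted p from 0.0802 to 0.192), and also without remission 2 (0.0628) or either relapse pool (0.0763). It was lost too with the replicate number as a block (0.0842), in the fit of onset and control alone (0.0665), after neqc background correction (0.0634), with trended and robust eBayes (0.0535) and under median scaling (0.379), while the change was below zero each time. Esrra, the estrogen-related receptor that PGC-1 proteins coactivate, changed by -0.33 ± 0.12 at onset (limma adjusted p = 0.343).

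The labelled tissue was checked against markers. All 9 measured markers of CP epithelium, Ttr, Kl and Clic6 among them, were above background in all pools, and 0 were called, with medians of -0.024, -0.018 and 0.033. Markers of other cells moved against control beside the members. At onset 3 of 8 endothelial, 3 of 7 leukocyte, 3 of 5 neutrophil, 3 of 4 T cell, 1 of 4 macrophage and 1 of 6 fibroblast genes were called higher, and in remission 3 endothelial, 1 macrophage and 1 T cell gene. The summed signal of the neutrophil list ran from 13570 to 25275 in onset pools, 6057 to 14212 in remission pools, 3035 to 3331 in relapse pools and 2571 to 5878 in control pools, and that of the leukocyte list from 8973 to 14224, 10223 to 11575, 7897 to 8472 and 4645 to 7577 in the same order. Mmp8 of the neutrophil list, Cd52 and Itgb2 of the leukocyte list, Cd2 of the T cell list and Kdr of the endothelial list were above background in no pool. At relapse 0 marker genes were called in any of these lists, or in those of neurons, oligodendrocytes, astrocytes and pituitary, though medians were 1.05 for the T cell, 0.76 for the pituitary, 0.43 for the neuron, 0.44 for the oligodendrocyte and 0.37 for the astrocyte list. The summed signal of the T cell list was 2339 to 2492 in relapse pools against 1162 to 1588 in control pools, and that of the pituitary list 8404 to 28995 against 2706 to 11122. Neither was particular to relapse: the T cell list gave 2054 to 2585 in onset and 1957 to 2354 in remission pools. The pituitary list gave 951 to 21495 in onset and 5148 to 22667 in remission pools. The summed signal of the oligodendrocyte list was 20461 to 21632 in relapse pools against 9293 to 16759 in control pools, and that of the neuron list 4464 to 5449 against 3170 to 3690. Mog, Snap25, Nefl, Gfap, Slc1a2 and Cga of these lists were above background in no pool. The part of these cells in the subunits' values was not tested. In whole tissue, fewer cells of a type and less RNA per cell cannot be told apart.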

How the data were processed

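Illumina MouseRef-8 arrays of 11 CP pools were analysed. Per the submitters' processing notes BeadStudio and limma were used. The authors deposited linear, unnormalized signal intensity values by probe. Beside each signal they deposited its detection p-value, which sets it against that array's negative control beads. A second deposited table holds log2 values, quantile-normalized between arrays by the authors. These differ from the log2 values computed here by at most 0.0888, and were used as an alternative only. The labels and the methods name different amplification kits. Columns were matched to samples by group and replicate number in the titles.

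Of 23983 probes, 5 duplicates were left out. Log2 signals of the other 23978 were quantile-normalized without background correction or filter, and a mean was fitted for each of 4 groups with limma 3.58.1 in R 4.3.3. All 6 contrasts were tested two-sided, with Benjamini-Hochberg adjustment at 5% over all probes. Probes were named through the platform's gene table: 20917 had 1 gene, 3060 none and 1 several. The 73 members had 84 probes. All 73 symbols matched the RefSeq gene table.

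With a detection p under 0.01 as the limit, 8687 to 10221 probes were above background in a pool. Arrays give no counts, so the number of pools limits the precision. Pools of 3 mice are separate samples, and p-values measure the spread between pools.

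Members, gene lists, the naming rule and the tests were chosen with earlier results of these data known. Genes named are the members with the smallest p in each complex and phase, those of widest and narrowest range, those below background, isoform partners, and up to 3 genes of each other list. Atp5a1, the pool order the motifs and the promoters shown were chosen after values were seen. The fit was first tested on simulated arrays whose changes were known. Same-numbered onset and remission pools deviated from their group means together (3 of 3 correlations above 0.1), and over all groups 5 of 15 did.

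Alternatives were neqc (offset 16), the deposited log2 table, median scaling, cyclic loess, a filter on dim probes, only the groups compared, a replicate block, array weights, trended and robust eBayes, 1 probe per gene, the mean over a gene's probes, each pool left out, onset 3 and remission 3 left out together, and unadjusted p-values.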

Additional observations from a re-analysis of the deposited data

How the results depend on the processing

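No call of a member was made in any of the 6 comparisons under neqc, the deposited log2 table, median scaling, cyclic loess, the filter on dim probes, a fit restricted to each pair of groups, the replicate block, trended and robust eBayes, 1 probe per gene, the mean over probes, or with any pool left out (0 to 0 higher and 0 to 0 lower). Array weights gave 1 lower member at onset, Cox6b2. Unadjusted p-values under 0.05 gave 4 lower members in remission, 4 at relapse, 1 higher and 1 lower at relapse against onset, and 1 lower at relapse against remission. Ndufs1, above background in no pool, was 1 of the 4 in remission. The median log2 fold change of the members was compared by the spread of the pool median within groups (0.017). It was the same by that measure under 127 of 138 alternatives and lay below zero in 133 of them. Many of these alternatives could not move it, so the counts overstate how stable it is. A fit of only the groups compared, trended and robust eBayes, 1 probe per gene, or leaving out a pool of neither group gives the same median. Under median scaling it was -0.075 at onset, -0.116 in remission and -0.148 at relapse against control, -0.037 for remission against onset and 0.025 for relapse against remission, where cyclic loess gave 0.00389. All genes had medians of 0.002, -0.016 and -0.013 against control under median scaling. With pools left out the medians ran from -0.067 to -0.026 for onset against control, from -0.057 to -0.033 for remission against control, from -0.127 to -0.054 for relapse against control, from -0.016 to 0.004 for remission against onset, from -0.039 to -0.011 for relapse against onset and from -0.028 to -0.005 for relapse against remission. The replicate block cannot change fold changes among onset, remission and control, whose pools carry the same replicate numbers. The median for remission against onset was therefore -0.005 under it too. With the block 0 calls of members were made, and the call of Ppargc1b was lost (limma adjusted p = 0.0842). The cause of these differences was not tested. The call of Ppargc1b at onset was lost in 15 of 24 alternatives, and all 24 gave a lower value at onset, between -0.49 and -0.30. The 9 members of wide range in a shared order numbered 10 under neqc, 10 in the deposited table and 11 under cyclic loess, each time with all 9 among them, and 4 under median scaling, a comparison chosen after seeing the data. Depth cannot be judged from these arrays, differences of members near the top of the scale are compressed, and the values of members not above background say little of their transcripts.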
